A study of Mus musculus with 4 samples.

Results

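The epithelial-mesenchymal transition (EMT) genes Zeb1, Zeb2, Snai1, Snai2, Twist1, Twist2, Vim, Fn1 and Cdh2 were examined in chromatin of mouse colorectal tumour organoids. These 9 genes were chosen by name, from the 21853 protein-coding genes with an annotated protein-coding start, and all 9 were found in the annotation. The organoids came from an AOM/DSS tumour (azoxymethane with dextran sulfate sodium, a colitis-linked model), clone 3 at passage 14. KMT9alpha, KMT9beta and H4K12me1 (histone H4 carrying 1 methyl group on lysine 12) were each profiled by ChIP-seq in 1 library, beside 1 input library that is not analysed here. The treatment label names 1 µM tamoxifen and vehicle without tying either to a library, the genotype is given as NA, and the medium held murine EGF. All libraries share the same clone and passage, so nothing below has a replicate check, no test between libraries was possible, and clone 3 is a single line.

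EMT is the programme by which epithelial cells lose their junctions and take on mesenchymal features. Its core transcription factors, the zinc finger proteins Zeb1, Zeb2, Snai1 and Snai2 and the basic helix-loop-helix proteins Twist1 and Twist2, are known to repress the epithelial cadherin gene Cdh1, the zinc finger factors by binding E-boxes. Vimentin (Vim), fibronectin (Fn1) and N-cadherin (Cdh2) are used as markers of the mesenchymal state, and the miR-200 microRNAs are known to repress Zeb1 and Zeb2. KMT9 is a methyltransferase made of KMT9alpha and KMT9beta that writes H4K12me1. A peak shows where the antibody enriched DNA and does not measure how much of a gene is expressed.

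The KMT9alpha, KMT9beta and H4K12me1 lists used here held 26146, 90349 and 60289 peaks, and the sequencing depth behind them is unknown. A gene was counted as carrying a library when a peak came within 1 kb of any of its GENCODE vM21 protein-coding starts, by at least 1 bp. KMT9beta was present at 8 of the 9 promoters, against 65.1% of all protein-coding genes. H4K12me1 was present at 7, against 44.9% of all genes. KMT9alpha was present at 4, against 54.2% of all genes. Snai1, Twist2, Vim and Fn1 carried all 3 libraries, a pattern found at 35.5% of all genes. The count fell to 2 of 9 with a window of 500 bp (33.4% of all genes) and to 1 of 9 with peaks at or above the median score (23.1%), so its place above the share of all genes did not hold under these settings. At each of these 4 genes the 3 peaks came within 1 kb of the same start, which held for 34.6% of all genes. Zeb1, Zeb2 and Twist1 carried KMT9beta and H4K12me1 without KMT9alpha, a combination found at 6.69% of all genes. Each lost this combination under some setting. Twist1 lost H4K12me1 with a window of 500 bp, and Zeb2 lost it when only the start of the gene record was used. Zeb1 lost both libraries when every list was shortened to the length of the KMT9alpha list. Cdh2 carried KMT9beta alone, and Snai2 carried none, as did 29.6% of all genes.

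The bases before the starts of Snai1, Twist1 and Twist2 are shown because the 3 libraries cover them differently. They are RefSeq sequences on GRCm38.p6 (mm10), + strand, of the 250 bases that end just before the annotated start, and capitals mark E-boxes (CACCTG or its complement CAGGTG) and CCAAT boxes (CCAAT or its complement ATTGG).
Snai1, chr2:167537945-167538194: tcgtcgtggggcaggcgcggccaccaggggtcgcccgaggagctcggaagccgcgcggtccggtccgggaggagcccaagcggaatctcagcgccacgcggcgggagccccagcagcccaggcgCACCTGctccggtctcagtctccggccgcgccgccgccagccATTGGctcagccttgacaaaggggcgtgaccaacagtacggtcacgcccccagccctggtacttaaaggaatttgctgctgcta
Twist1, chr12:33957421-33957670: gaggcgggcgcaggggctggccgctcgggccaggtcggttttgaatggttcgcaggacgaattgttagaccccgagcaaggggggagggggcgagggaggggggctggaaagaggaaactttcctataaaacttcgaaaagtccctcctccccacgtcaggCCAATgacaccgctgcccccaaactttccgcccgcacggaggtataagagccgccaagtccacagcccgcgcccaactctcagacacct
Twist2, chr1:91801211-91801460: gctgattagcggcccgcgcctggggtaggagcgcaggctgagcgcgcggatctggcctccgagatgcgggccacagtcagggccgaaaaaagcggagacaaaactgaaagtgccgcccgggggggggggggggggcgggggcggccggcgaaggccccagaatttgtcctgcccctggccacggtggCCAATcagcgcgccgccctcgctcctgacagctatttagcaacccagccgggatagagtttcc
All 250 bases of the Snai1 stretch lay inside the KMT9beta and the H4K12me1 peak, and the last 76 of them inside the KMT9alpha peak. The Twist1 stretch lay wholly inside its KMT9beta peak and outside the others. The Twist2 stretch lay wholly inside its H4K12me1 peak, with 44 bases inside KMT9beta and 0 inside KMT9alpha.

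Motifs were searched on both strands in windows of 250 bases before to 50 after a RefSeq start, of which 5 of the genes (Snai1, Twist1, Twist2, Vim and Zeb2) had 8 entries. The E-box was found in 1 of these 8 entries, that of Snai1, and in 20.2% of the 32851 promoter entries of all genes. It starts 126 bases before the Snai1 start, inside the KMT9beta and H4K12me1 peaks, and the KMT9alpha peak begins 45 bp after it. The CCAAT box, searched after the sequences had been seen, was found in 5 of the 8 entries, 1 for each of the 5 genes, and in 37.4% of all entries. A match of letters does not show that a factor binds there.

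**Figure D1:**
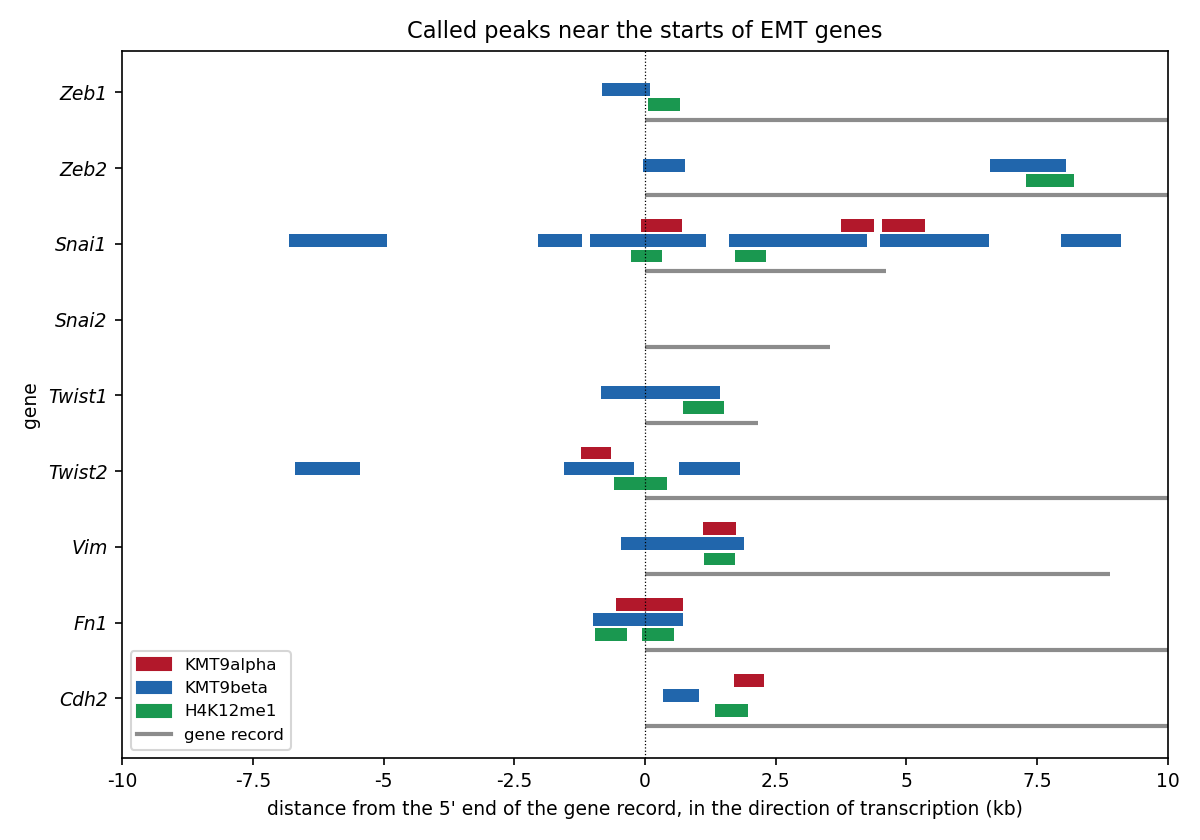
Called peaks from 10 kb before to 10 kb after the 5' end of each gene record (x axis, kb, in the direction of transcription) for the 9 EMT genes (y axis). Coloured bars are peaks of the 3 libraries drawn to scale and grey lines are the gene records. KMT9alpha bars are absent from Zeb1, Zeb2, Snai2 and Twist1, and the KMT9alpha peaks of Vim and Cdh2 lie inside the genes.

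Scores of the authors are compared only within 1 list, since their scale is not given. Among the Snail genes, Snai1 (chromosome 2, 167538195 to 167542814, + strand) had the highest KMT9beta score of the 9 promoters. Its KMT9beta peak at 167537139 to 167539354 had a score of 365.82, above 85.0% of the KMT9beta promoter peaks. Its KMT9alpha peak at 167538119 to 167538906 scored 391.27, at percentile 18.1 of the KMT9alpha promoter peaks, and its H4K12me1 peak at 167537924 to 167538516 scored 85.45, at percentile 44.0. The 3 peaks shared 398 bp across the start. Among promoter peaks, KMT9beta at Snai1 was thus high and KMT9alpha low, while among all KMT9alpha peaks the Snai1 score lay at percentile 54.0.

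Snai2 (chromosome 16, 14705852 to 14709385, + strand), which encodes the related factor Slug, had no peak of any library at its promoter, in the gene or within 50 kb on either side. Such an empty stretch was found at 8.11% of all genes. The CpG observed to expected ratio of its promoter was 0.575, in the fourth of 5 classes of increasing ratio. Why Snai2 had no peak was not tested. In the fourth class 4.51% of genes had no promoter peak of any library.

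Neither Zeb gene had KMT9alpha at its promoter, and both had KMT9beta below the median of promoter peaks. Zeb2 (chromosome 2, 44983632 to 45117395, - strand) has 17 annotated protein-coding starts. A KMT9beta peak at 45109333 to 45110786 scored 128.53 (percentile 37.5 of promoter peaks) and overlapped an H4K12me1 peak at 45109198 to 45110104 by 772 bp, which scored 120.74 (percentile 64.5). This pair lies at inner starts of the gene, and the antisense gene Zeb2os begins within the KMT9beta peak. The outermost start had a KMT9beta peak alone, with a score of 52.59, near the lowest score of the list, 50.

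Zeb1 (chromosome 18, 5591860 to 5775467, + strand) had a KMT9beta peak at 5591033 to 5591957 that scored 112.61 (percentile 31.8 of promoter peaks) and an H4K12me1 peak at 5591923 to 5592524 that scored 83.81 (percentile 42.3). The peaks met end to end with 35 bp in common, KMT9beta before and across the start and H4K12me1 centred in the first intron. An unclassified gene record on the other strand, Gm2238, begins inside the KMT9beta peak. Zeb1 had the highest promoter CpG ratio of the 9, 0.925. In the class of highest CpG ratio KMT9alpha was present at 91.9% of genes, and 3.66% had the Zeb1 pattern of the mark and KMT9beta alone.

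The Twist genes differed from each other. Twist1 (chromosome 12, 33957671 to 33959829, + strand) had a KMT9beta peak of 2275 bp at 33956832 to 33959106 across the start, with a score of 301.08 (percentile 77.7 of promoter peaks), wider than 84.8% of KMT9beta promoter peaks. Its H4K12me1 peak at 33958406 to 33959186 began 735 bp after the start and scored 112.93 (percentile 61.5). Twist2 (chromosome 1, 91801461 to 91848028, + strand) carried all 3, and its H4K12me1 peak at 91800867 to 91801882 scored 220.57, above 88.8% of H4K12me1 promoter peaks and the highest mark score of the 9 promoters. Its KMT9alpha peak at 91800242 to 91800816 ended 645 bp before the start and scored 227.99 (percentile 9.88), and it did not overlap the H4K12me1 peak. KMT9beta had a peak on each side of the start, with scores of 163.59 at 91799904 to 91801254 and 107.31 at 91802113 to 91803271. The first KMT9beta peak contained the whole KMT9alpha peak of 575 bp and shared 388 bp with H4K12me1. The antisense gene Gm29100 begins within the second KMT9beta peak.

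Of the mesenchymal markers, Fn1 had the highest KMT9alpha score of the 9 genes. Fn1 (chromosome 1, 71585520 to 71653200, - strand) had a KMT9alpha peak of 1284 bp at 71652479 to 71653762 with a score of 996.05, which is still at percentile 33.2 of KMT9alpha promoter peaks. It lay entirely inside a KMT9beta peak at 71652475 to 71654200 that scored 237.69 (percentile 66.7). H4K12me1 had a pair of peaks, at 71652648 to 71653253 (score 73.12) and 71653550 to 71654151 (score 58.71). The antisense gene Apol7d begins inside the KMT9alpha peak, the KMT9beta peak and the first H4K12me1 peak, so these cannot be assigned to 1 of the genes. Fn1 was the gene with the largest stretch under all 3 libraries, 606 bp.

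Vim (chromosome 2, 13573927 to 13582826, + strand) had a KMT9beta peak of 2356 bp across its starts at 13573464 to 13575819, with a score of 301.68 (percentile 77.9 of promoter peaks). Its KMT9alpha peak at 13575038 to 13575663 began 757 bp after the nearest start and scored 159.24, at percentile 1.75 of KMT9alpha promoter peaks. The H4K12me1 peak at 13575048 to 13575645, score 73.51 (percentile 28.6), lay wholly within the KMT9alpha peak, and both are centred in the first intron. Both were counted at the Vim promoter through its inner start and were out of reach of the outermost one.

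Cdh2 (chromosome 18, 16588877 to 16809246, - strand) had a single promoter peak, KMT9beta at 16808219 to 16808902 with a score of 52.9 (percentile 1.92 of promoter peaks). A KMT9alpha peak at 16806976 to 16807550 (score 229.91) and an H4K12me1 peak at 16807273 to 16807914 (score 67.42) overlapped by 278 bp in the first intron, 1696 bp and 1332 bp after the start, beyond the window. Neither touched the KMT9beta peak. With a window of 2500 bp Cdh2 counted as carrying all 3.

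**Figure D2:**
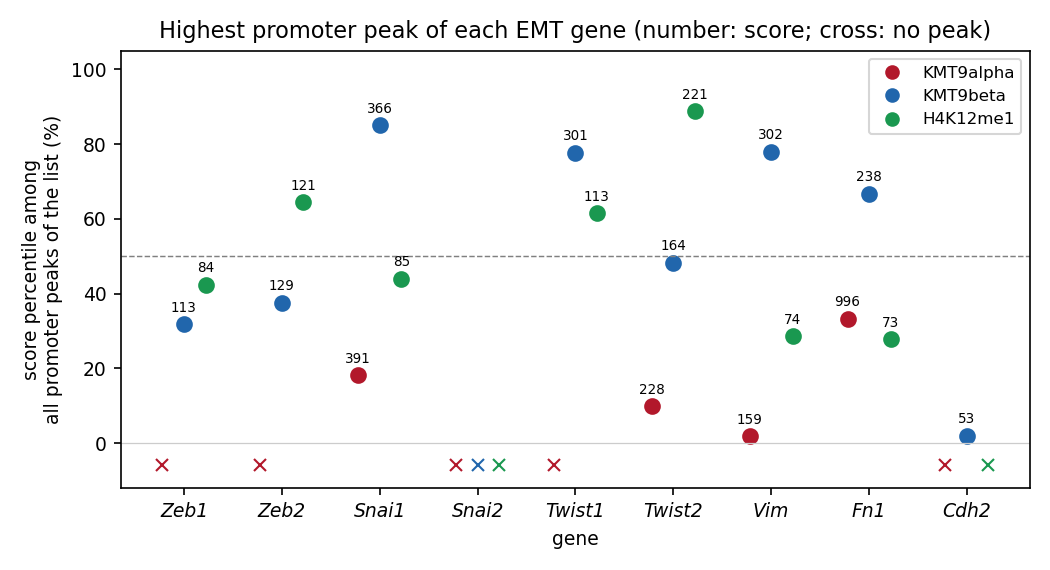
Highest promoter peak of each EMT gene (x axis) as its percentile among all promoter peaks of the same library (y axis, %), with the score printed at the point and a cross where no peak was called. The 4 KMT9alpha points lie between percentile 1.75 and 33.2, below the dashed line at the median, while KMT9beta of Snai1, Twist1, Vim and Fn1 and H4K12me1 of Zeb2, Twist1 and Twist2 lie above it.

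All 4 KMT9alpha scores were thus below the median of 2119 for KMT9alpha promoter peaks. No EMT gene reached a score of 3100 or more at its promoter, which 24.7% of all genes reached. The highest KMT9alpha score was 3233.06, and genes given here at 3100 are tied, so they cannot be ranked among themselves. The highest KMT9beta scores of the 8 genes had a median of 200.6, against 206.49 over all genes with a KMT9beta promoter peak. For H4K12me1 the median was 85.45 over the 7 genes, against 104.12 over all genes with the mark. The median promoter CpG ratio of the 9 genes was 0.606, against 0.442 over all genes. Zeb1, Snai1, Twist1 and Twist2 fell in the highest CpG class, where 91.9%, 96.0% and 71.1% of genes carried KMT9alpha, KMT9beta and H4K12me1. Fn1, Vim, Snai2 and Zeb2 fell in the next class (84.2%, 90.2% and 61.5%), and Cdh2 in the middle class (63.3%, 76.4% and 50.4%). By class, then, KMT9alpha was present at 2 of 4, 2 of 4 and 0 of 1 of these genes. KMT9beta was missing only from Snai2, and H4K12me1 only from Snai2 and Cdh2. In each of these classes the KMT9beta and H4K12me1 shares lay above the 65.1% and 44.9% over all genes. The share over all genes is thus a low mark of comparison for genes with such CpG ratios.

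Other genes of the programme were counted from lists by role, which were chosen with earlier results of these data known. Epithelial genes that EMT factors repress or that oppose EMT had KMT9alpha at 20 of 20 promoters, against 54.2% of all genes, with a lowest score of 799.33. Of these 20 genes, 13 scored 3100 or more, against 24.7% of all genes. Among them were Cdh1, which encodes E-cadherin and had a KMT9alpha score of 3100, a KMT9beta score of 236.55 and an H4K12me1 score of 78.56, and the tight junction gene Cldn3, with 3100, 616.57 and 163.74 in the same order. KMT9beta was present at 18 and H4K12me1 at 17 of these 20 genes, and all 3 at 15, against 65.1%, 44.9% and 35.5% of all genes. The highest KMT9alpha score of the EMT genes, 996.05 at Fn1, exceeded 3 of the 20 epithelial genes, Krt19 (799.33), Rab25 (891.74) and Grhl1 (983.79), which were named after their values were seen. The median promoter CpG ratio was 0.606 for the EMT genes and 0.61 for the epithelial genes. Whether CpG content bears on the KMT9alpha scores of these lists was not tested.

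Cofactors and stability regulators of the EMT factors had KMT9alpha at 12 of 12 promoters, KMT9beta at 11 and H4K12me1 at 9. Over all genes the shares were 54.2%, 65.1% and 44.9%. KMT9alpha scored 3100 or more at 10 of the 12, against 24.7% of all genes, so such scores were not particular to the epithelial list. Ctbp1 and Ctbp2, corepressors that Zeb proteins recruit, carried all 3, with KMT9alpha scores of 3100 each. TGF-beta inputs, from a pathway that is known to induce EMT and including inhibitors of it, had KMT9alpha at 9 of 10 promoters. KMT9alpha scored 3100 or more at 6 of them, again against 24.7% of all genes. KMT9beta was at 10 and H4K12me1 at 9 of these promoters, beside the same 54.2%, 65.1% and 44.9% of all genes for the 3 libraries. Smad3, a signal transducer, scored 3100, 625.83 and 119.71 in that order of libraries, and Skil, a feedback inhibitor of Smad proteins, 3100, 662.74 and 184.17. Tgfb2, named after its values were seen, was the ligand gene without KMT9alpha.

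Other transcription factors linked to EMT had KMT9alpha at 10 of 14 promoters, KMT9beta at 12, H4K12me1 at 10 and all 3 at 8. The shares of all genes, in the same order, were 54.2%, 65.1%, 44.9% and 35.5%. Foxc1 and Hmga2 both reached a KMT9alpha score of 3100, and Hmga2 had an H4K12me1 score of 404.25. Klf8 and Prrx1 had no promoter peak. Other mesenchymal and matrix genes had KMT9alpha at 4 of 20 promoters, KMT9beta at 14, H4K12me1 at 6 and all 3 at 1, the integrin gene Itgav. Col3a1, a fibrillar collagen gene, and Cdh11, another mesenchymal cadherin gene, had none. These matrix genes had a median promoter CpG ratio of 0.30, lower than the 0.606 of the EMT genes. In the CpG class that holds 0.30, from 0.181 to 0.34, KMT9alpha was at 26.9% of genes. Of 10 markers of intestinal epithelium, 5 of them also in the epithelial list, 9 carried KMT9alpha, among them Cdx1 with 3100, and Krt20 had no promoter peak. Of 6 fibroblast markers, 3 of them also in the matrix list, 1 carried KMT9alpha, Pdgfra with 373.79. Dcn was among the 3 with no promoter peak of any library. KMT9alpha was at 54.2% of all genes. The median promoter CpG ratio was 0.461 for the intestinal markers and 0.245 for the fibroblast markers. In the CpG classes that hold these ratios KMT9alpha was at 63.3% and 26.9% of genes. Whether CpG content bears on these counts was not tested.

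**Figure D3:**
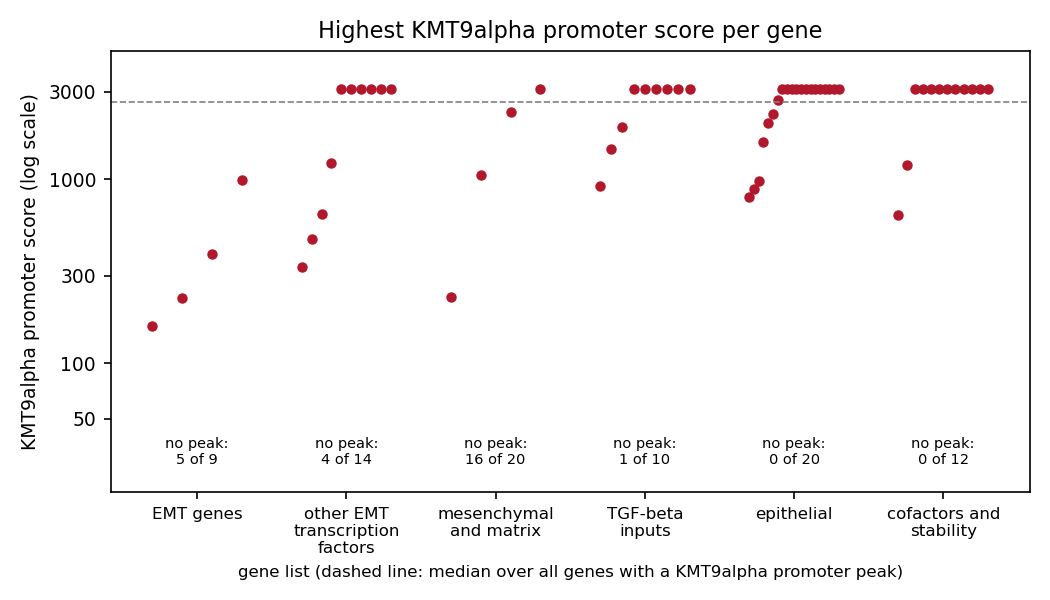
Highest KMT9alpha promoter score per gene (y axis, log scale) for the EMT genes and 5 lists of related genes (x axis), 1 point per gene, with the number of genes without a peak printed below. The 4 EMT genes with a peak lie between 159.24 and 996.05, while 13 of the 20 epithelial genes lie at 3100. The dashed line marks the median of 2647 over all genes with a KMT9alpha promoter peak. The lists were chosen with earlier results of these data known.

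**Figure D4:**
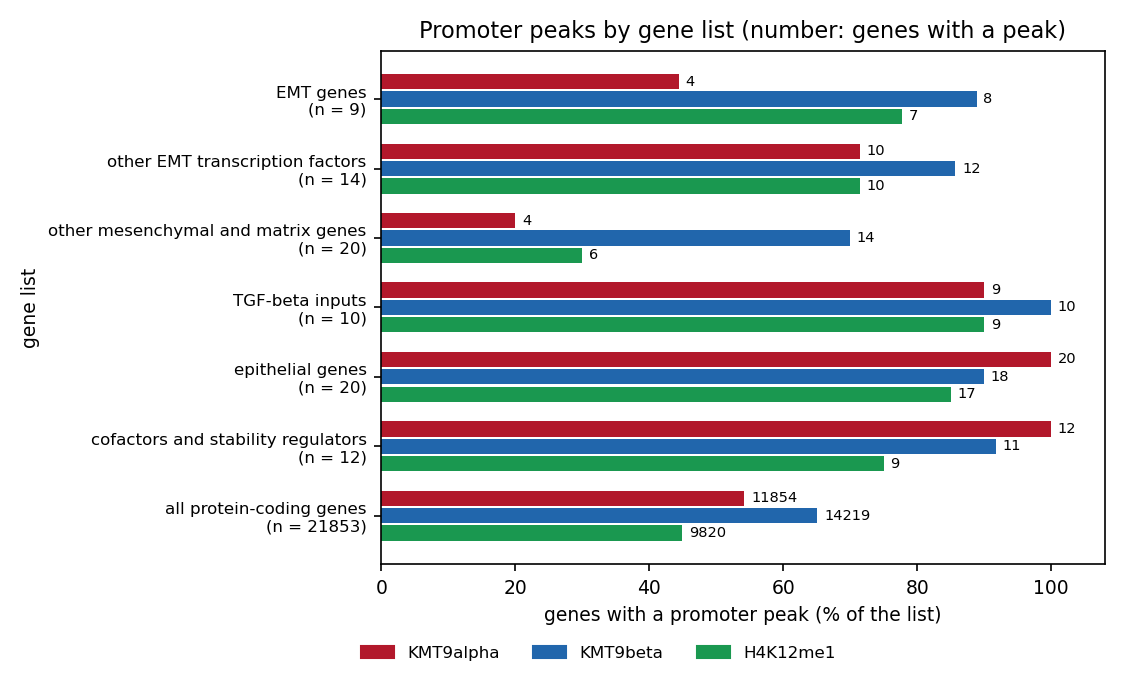
Percentage of the genes in each list that carried each of the 3 libraries at the promoter (x axis, %; bars), with the number of genes printed at the bar. KMT9alpha was at 4 of 9 EMT genes and 4 of 20 mesenchymal and matrix genes, and at all 20 epithelial genes, against 54.2% of all protein-coding genes. In the CpG class that holds the median ratio of the matrix genes, KMT9alpha was at 26.9% of genes. In the class that holds the medians of the EMT and epithelial genes it was at 84.2%. The lists were chosen with earlier results of these data known.

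The miR-200 microRNAs, repressors of Zeb1 and Zeb2, are encoded by a cluster on chromosome 4 (Mir200b, Mir200a and Mir429) and a cluster on chromosome 6 (Mir200c and Mir141). Their mature sequences are shown from RefSeq (GRCm38.p6), 5′ to 3′, with the seed, bases 2 to 8, in capitals, because the seed is the part that pairs with target messages. In the order shown, the first 3 share 1 seed and the last 2 share another.
miR-200b-3p: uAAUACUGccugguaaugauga
miR-200c-3p: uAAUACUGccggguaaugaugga
miR-429-3p: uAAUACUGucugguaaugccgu
miR-200a-3p: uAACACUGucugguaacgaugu
miR-141-3p: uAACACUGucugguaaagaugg
Within 1 kb of the Mir200c and Mir141 hairpins lay a KMT9alpha peak of 5168 bp (124716256 to 124721423) with a score of 3100, wider than 99.89% of KMT9alpha peaks. The same stretch held KMT9beta peaks with scores of 55.27 and 157.49 and H4K12me1 peaks with scores of 69.84 and 134.24. The KMT9alpha peak also reaches a promoter of Ptpn6 and cannot be assigned to the hairpins alone. On chromosome 4 a KMT9beta peak (156054406 to 156056431, score 250.8) lay within 1 kb of all 3 hairpins, a KMT9alpha peak (156055280 to 156055842, score 170.07) within 1 kb of Mir200b and Mir200a, and no H4K12me1 peak was called. Mir205, which is also known to repress the Zeb genes, had none. Among 1005 mouse hairpins 16.8%, 44.3% and 27.7% had a KMT9alpha, KMT9beta and H4K12me1 peak within 1 kb.

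Inside the genes and outside their promoters, KMT9alpha was present at 2 of the 9 genes (19.8% of all genes), KMT9beta at 5 (49.5%) and H4K12me1 at 4 (41.0%). Long genes gather more peaks, so each count was set beside genes of 0.5 to 2 times its length. Twist2 held 6 KMT9beta and 4 H4K12me1 peaks in its first intron, against a median of 1 for each in 6506 genes of similar length, of which 17.2% had at least as many KMT9beta peaks and 16.8% at least as many H4K12me1 peaks. The highest-scoring of these, KMT9beta at 91816431 to 91819508 with a score of 330.86, exceeded the KMT9beta peaks at the Twist2 promoter and contained a pair of H4K12me1 peaks with scores of 65.17 and 71.0. The other 5 KMT9beta peaks scored between 51.11 and 77.49 and overlapped no H4K12me1 peak. The highest H4K12me1 score in the intron, 210.47 at 91830870 to 91832352, lay outside KMT9beta and was close to the 220.57 at the promoter. Snai1, a gene of 4620 bp, held 2 KMT9alpha peaks at its 3' end, which 1.49% of 5508 genes of similar length matched or exceeded. These peaks had scores of 210.67 (167541942 to 167542573) and 262.68 (167542727 to 167543543). They lay at percentiles 32.4 and 44.0 of all KMT9alpha peaks, below the median. With peaks at or above the median score, or with promoters of 5000 bp left out, none of the 9 genes kept a KMT9alpha peak in its body. The first lay inside 1 KMT9beta peak for 495 bp and the second inside another for its whole 817 bp, and neither overlapped H4K12me1. The second is centred beyond the gene end at 167542814 and is counted only through its overlap with the 3' end.

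In the long genes Zeb1, Zeb2 and Cdh2, KMT9beta and H4K12me1 counts lay below the medians of genes of similar length, though many of those genes had as few. Zeb1, with 183608 bp, had 1 KMT9beta and 1 H4K12me1 peak, against medians of 3 and 2 in 2329 genes of similar length, of which 36.9% and 49.6% had as few or fewer. The pair lay together in the third intron, where the H4K12me1 peak at 5751276 to 5751866 was wholly inside the KMT9beta peak at 5750926 to 5752129 (score 158.86, higher than the 112.61 at the promoter). Cdh2, the longest of the 9 with 220370 bp, had no KMT9beta peak outside its promoter, as did 17.7% of 1894 genes of similar length. Its 1 H4K12me1 peak compared with a median of 2 (46.9% had as few or fewer), and its 1 KMT9alpha peak with a median of 0 (78.0%). Zeb2 had 1 KMT9beta peak, in a coding exon, against a median of 2 in 3122 such genes (41.6% had as few or fewer), and no H4K12me1 peak, as did 34.7%. Fn1 had 1 KMT9beta peak inside the gene, with a score of 56.43, and Vim, Twist1 and Snai2 had none of any library.

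In the 50 kb on either side of each gene, Snai1 had 3 KMT9alpha, 23 KMT9beta and 15 H4K12me1 peaks, against medians of 1, 5 and 3 over all protein-coding genes. Of all genes 93.7% had fewer KMT9beta peaks, 90.8% fewer H4K12me1 peaks and 65.1% fewer KMT9alpha peaks there. At the neighbouring genes Rnf114 and Spata2 lay 2 of the 23 KMT9beta peaks, and 7 of the 23 overlapped H4K12me1. The flanking KMT9beta peaks had scores of 53.62 to 337.77 with a median of 94.87, all below the 365.82 of the Snai1 promoter. The 2 KMT9alpha peaks at the neighbours scored 3100 each, against 391.27 at Snai1 itself. Twist2 followed with 12 KMT9beta and 9 H4K12me1 peaks (72.9% and 77.8% of genes had fewer) and no KMT9alpha. Its flanking KMT9beta peaks scored at most 200.76, and none lay at the promoter of another gene. The other genes had 0 to 3 peaks of each library. In the flanks of Zeb1, Zeb2, Twist1 and Cdh2, KMT9beta had 2, 1, 2 and 1 peaks, H4K12me1 had 1, 0, 1 and 0, and KMT9alpha had none. At Fn1 and Vim the flanks held a KMT9alpha peak at the promoters of Atic (score 3100) and Trdmt1 (score 1462.09).

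**Figure D5:**
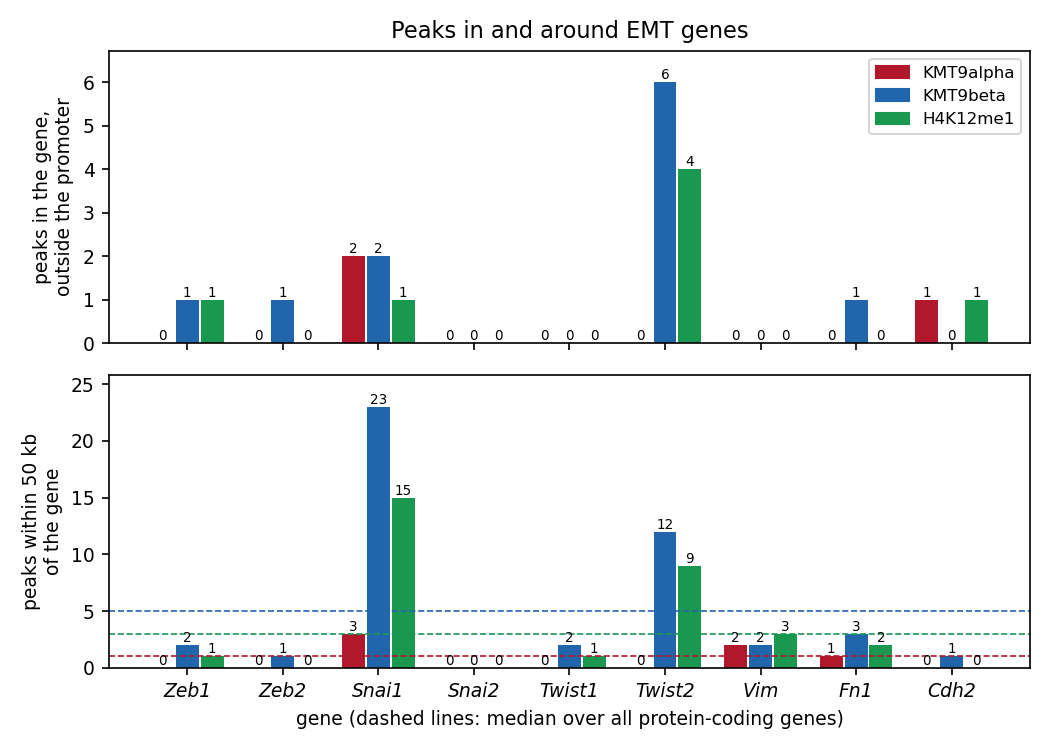
Number of peaks of each library inside each EMT gene outside its promoter (upper panel) and within 50 kb of the gene (lower panel), with the medians over all protein-coding genes as dashed lines in the lower panel. KMT9beta peaks in the flanks of Snai1 (23) and Twist2 (12) exceed the median of 5, and Snai2 has 0 in every class.

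The genes most like the 4 with all 3 libraries were taken as those nearest in Euclidean distance over the 3 libraries, with each gene's highest promoter score given as its percentile among all peaks of the list. For Snai1 they were Sp9 and Gm13287, at distances of 2.6 and 2.84 percentile points, and for Twist2 Fam181a and Hoxd3 (3.8 and 4.07). For Vim they were Msln and Abca5 (4.65 and 4.75), and for Fn1 Ccdc126 and Rassf6 (1.31 and 1.98). Snai1 scored 391.27, 365.82 and 85.45 for KMT9alpha, KMT9beta and the mark, beside 342.58, 376.75 and 85.95 for Sp9. The likeness rests on 3 values per gene.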

How the data were processed

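The deposited files are 1 peak list per antibody, which give the position and a score of each peak as the authors made them. Reads were mapped to mm10, and the labels' protocols name STAR while the submitters' processing notes name Bowtie2. Peak names begin with MACS. The caller's version, threshold and control, and the scale of the score, were not given in the sources used. Depth is likewise unknown. Of 26227 KMT9alpha, 90473 KMT9beta and 60409 H4K12me1 peaks, the 81, 124 and 120 on unplaced sequences were left out. The lowest score was 50.01, 50 and 50. Positions were turned into 1-based coordinates. Promoters, gene spans and flanks of 50 kb were taken from GENCODE vM21 on GRCm38.p6, the assembly behind mm10, and peaks of a gene body or flank exclude those at its promoters. CpG ratios are medians over the starts of a gene in the promoter window, and exons and introns are those of the transcript with the longest coding sequence. With 1 library per antibody no test was run: counts stand beside the share of all protein-coding genes.

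The members and lists were chosen with earlier results of these data known. Named genes were the 9 EMT genes, genes that share their peaks, per list the pair that carried all 3 libraries and ranked highest for KMT9alpha, with ties by symbol, and the first pair in alphabetical order with none, and the nearest genes by score percentile. The comparison with genes of similar length was added after seeing the data. Overlap calls were tested on simulated data. Python 3.11.15 was used with pandas 2.3.3, numpy 2.4.6 and matplotlib 3.10.9. Alternatives changed the window, the set of starts, the overlap rule, the score threshold and the number of peaks per list.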

Additional observations from a re-analysis of the deposited data

How the results depend on the processing

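KMT9beta at 8 of the 9 promoters stayed between 6 and 8 under every alternative tried. Over all genes its share ran from 48.0% with lists of equal length to 70.6% with a window of 5000 bp. KMT9alpha, at 4 promoters, was at 2 with a window of 500 bp and at 2 with peaks at or above the median score of their list. These were Snai1 and Fn1 in both cases. KMT9alpha was then at 53.4% and 49.0% of all genes. All 3 libraries, at 4 promoters, were at 2 with the window of 500 bp, at 1 with peaks at or above the median score and at 2 when every list was shortened to the length of the KMT9alpha list. Over all genes the shares with all 3 were then 33.4%, 23.1% and 22.2%, so the EMT genes lay below all genes under the first and second of these settings and level with them under the third. H4K12me1, at 7 promoters, was at 4 with lists of equal length, where 28.9% of all genes carried it. For the gene body alternatives that follow, shares over all genes were not computed. For gene bodies, KMT9alpha was at 0, KMT9beta at 3 and H4K12me1 at 1 with peaks at or above the median score. With lists of equal length KMT9beta was at 3 and H4K12me1 at 1. With promoters of 5000 bp left out KMT9alpha was at 0 and H4K12me1 at 2. These alternatives keep fewer peaks or shorter stretches. The other 31 such counts stayed within 1.5 times the values in the report. Snai1 kept all 3 libraries at its promoter, and Snai2 none, under all 8 promoter alternatives. The pattern of KMT9beta and H4K12me1 without KMT9alpha was less stable. Twist1 lost H4K12me1 with the window of 500 bp and when the peak midpoint had to lie in the window. Zeb2 lost H4K12me1 with the start of the gene record alone, and Zeb1 lost both libraries with lists of equal length. No paired analysis was possible because each antibody has 1 library and no test was run. The depth is unknown, so an absent peak does not show that the subunit or the mark is absent.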
